A study of Mus musculus with 3 samples.

Results

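The genes described here are 35 transcripts of the epithelium that lines the brain's ventricles, measured in microvascular fragments: 23 genes of choroid plexus epithelium and 12 genes of the motile cilia of ependymal cells. They were chosen by gene symbol from a list, and each symbol matched 1 row of the 56941 genes in the deposited count table. The fragments are short pieces of small vessel, freed mechanically and with enzymes from the brains of adult wild-type C57BL/6J mice. All 3 libraries belong to this 1 group (n = 3), with no treated, mutant or sorted group beside them, so every comparison is between genes or between libraries. The series' design text speaks of 3 mice, and nothing in the labels says from which brain regions the tissue was taken, or whether choroid plexus was removed. Where the replicates are not separate animals, the spread between them may be technical.

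The choroid plexus is a folded epithelium over fenestrated capillaries in each ventricle. It makes cerebrospinal fluid, carries folate, vitamins and hormones into it, and secretes transthyretin. Ependymal cells line the ventricle walls and beat motile cilia, built on an axoneme of paired microtubules, dynein motors, radial spokes and a central pair. Choroid plexus epithelial cells carry cilia of their own, so cilia genes are not restricted to ependyma.

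Depth ranged from 128428355 to 150449539 counts per library. Levels are given as CPM, the count scaled by the TMM-adjusted library size, and are compared between genes only as CPM per kb of exonic length. The 6 endothelial markers were all detected, with summed levels of 10138.5 to 12570.7 CPM, so the labelled vessel identity was present in every library. Detection here means at least 1 CPM in every library, which 23.2% of all genes in the table reached.

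Both classes were detected nearly in full. Of the 23 choroid plexus genes, 22 were detected, and of the 12 cilia genes, 11. The exceptions were Mia, with 11, 10 and 7 counts in replicates 1, 2 and 3, and Drc1, with 0.822, 0.808 and 0.958 CPM. The members together held 1.08%, 1.16% and 0.683% of all counts. Ttr alone held 59.2% to 68.2% of these counts and Enpp2 21.0% to 27.8%, so the summed level of the members was mostly that of these genes.

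The choroid plexus class lay well above the cilia class. Its median was 8.24 ± 0.895 CPM per kb (SD, n = 3), against 1.23 ± 0.209 CPM per kb for the cilia class. The ratio of the medians was 6.10, 8.86 and 5.67 in replicates 1, 2 and 3, a mean of 6.87 ± 1.73. Among all detected genes the median was 5.79 to 5.83 CPM per kb, so the choroid plexus median lay above that level and the cilia median below it. The classes overlapped: in every library Tppp3 lay above the choroid plexus median, and Lmx1a and Mia lay below the cilia median. Without Rarres2, Rdh5 and Mia, whose exons overlap those of other genes, the mean ratio was 10.8, and on CPM not scaled by length it was 18.5. No p-value is given for this ratio, since the genes are not replicates and a sign-flip test over 3 libraries cannot go below 0.25.

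**Figure D1:**
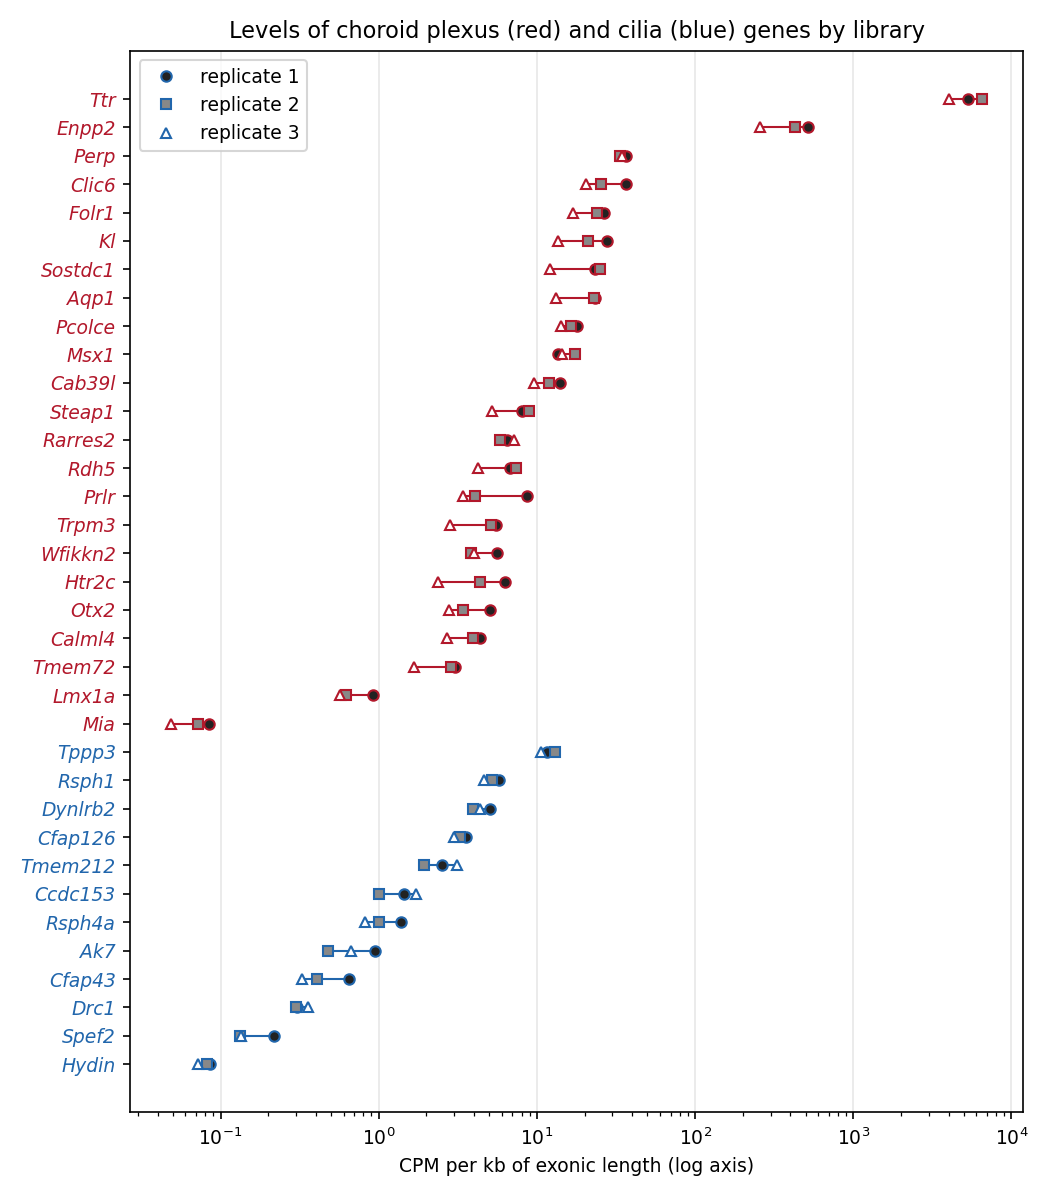
CPM per kb of exonic length (log axis) of each choroid plexus gene (red) and cilia gene (blue), 1 marker for each of the 3 libraries and a line over their range. Ttr and Enpp2 stand apart from the other choroid plexus genes. Replicate 3 (open triangles) is the lowest library for 18 of the 22 detected choroid plexus genes and 6 of the 11 detected cilia genes. The share over all detected genes is 30.6%.

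Promoter windows are shown for the members with the highest level per length that had an entry in the RefSeq promoter table (build GRCm38.p6), leaving out 1 chromosome that is not reported. They let the windows of both classes be set beside each other. Each runs from 250 bases before to 50 bases after the start given in that promoter table, 5′ to 3′ on the gene's strand. Bases after the start were found in a GENCODE transcript of the gene for Kl, Dynlrb2 and Cfap126. For Aqp1 they were not, so the place of its window at the gene's start is uncertain. Capitals mark a match, on either strand, to TAATCC (the core bound by OTX factors), GTTGCC (a half-site of RFX factors, which drive cilia genes) or TGTTTAC (a forkhead core); none of the matches shown overlap. The choroid plexus pair is Kl at chr5:150952357-150952656 (plus strand) and Aqp1 at chr6:55336049-55336348 (plus strand), and the cilia pair is Dynlrb2 at chr8:116504765-116505064 (plus strand) and Cfap126 at chr1:171113736-171114035 (plus strand).
Kl: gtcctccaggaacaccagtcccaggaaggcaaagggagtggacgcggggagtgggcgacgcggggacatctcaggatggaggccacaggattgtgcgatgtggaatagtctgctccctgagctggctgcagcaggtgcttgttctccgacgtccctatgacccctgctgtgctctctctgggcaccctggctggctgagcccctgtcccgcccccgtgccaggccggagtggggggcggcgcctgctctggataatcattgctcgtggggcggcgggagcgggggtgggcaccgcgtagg
Aqp1: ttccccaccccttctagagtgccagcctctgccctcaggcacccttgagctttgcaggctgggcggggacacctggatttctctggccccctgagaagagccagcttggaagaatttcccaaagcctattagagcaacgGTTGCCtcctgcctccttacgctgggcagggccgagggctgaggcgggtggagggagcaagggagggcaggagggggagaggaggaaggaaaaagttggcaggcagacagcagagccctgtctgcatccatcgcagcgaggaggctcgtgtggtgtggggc
Dynlrb2: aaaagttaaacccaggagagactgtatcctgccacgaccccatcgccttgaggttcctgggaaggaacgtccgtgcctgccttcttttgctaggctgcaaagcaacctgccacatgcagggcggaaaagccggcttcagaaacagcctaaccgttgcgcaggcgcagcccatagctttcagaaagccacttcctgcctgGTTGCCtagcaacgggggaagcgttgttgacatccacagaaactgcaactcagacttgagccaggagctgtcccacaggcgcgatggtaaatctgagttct
Cfap126: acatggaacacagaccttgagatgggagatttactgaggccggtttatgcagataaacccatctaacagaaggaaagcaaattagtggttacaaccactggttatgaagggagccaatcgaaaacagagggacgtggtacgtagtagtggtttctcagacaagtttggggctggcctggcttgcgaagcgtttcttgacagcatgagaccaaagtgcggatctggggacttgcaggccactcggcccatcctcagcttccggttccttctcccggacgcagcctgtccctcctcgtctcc

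The Aqp1 and Dynlrb2 windows each held 1 match, both to the RFX half-site, and the Kl and Cfap126 windows held none. Of the 35 members, 25 had an entry, with 34 windows in all. The RFX half-site was found in 5 of 11 cilia windows (Ccdc153, Drc1, Dynlrb2, Hydin and Spef2) and 5 of 23 choroid plexus windows (genes Aqp1, Otx2, Steap1 and Wfikkn2), against 12.5% of all 32851 windows. The OTX core was in 0 of 11 and 1 of 23 windows (Otx2 itself), against 7.06% of all windows. The forkhead core was in 2 of 11 cilia windows (Ak7 and Cfap43) and 1 of 23 choroid plexus windows (Prlr), against 3.65% of all windows. These letter matches describe the windows only and do not show binding.

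Secreted proteins led the choroid plexus class. Ttr, which encodes transthyretin, the carrier of thyroid hormone in cerebrospinal fluid, had 6329, 7759 and 4759 CPM in replicates 1, 2 and 3. At 5297 ± 1265 CPM per kb it ranked 3rd of the 49089 genes with a length. Enpp2, which encodes autotaxin, the enzyme that makes lysophosphatidic acid, had 2970.4, 2479 and 1484 CPM. Its level of 399.9 ± 131 CPM per kb was below that of Ttr in each library. Oligodendrocytes also make Enpp2; of 10 oligodendrocyte markers 7 were detected, with a summed level of 929.6, 656.6 and 1056 CPM. Mal supplied 753, 495 and 896 CPM of that sum, and the mean log2 deviation of the list from the gene means was 0.10, -0.06 and -0.04, highest in replicate 1 as Enpp2 was. The part of oligodendrocyte RNA in the Enpp2 values was not tested.

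Sostdc1, a secreted antagonist of BMP and Wnt signals, had 41.2, 44.9 and 21.6 CPM, so replicate 3 stood apart from both others. Pcolce, an enhancer of procollagen processing that fibroblasts also make, had 68.3, 63.1 and 54.5 CPM. Wfikkn2, an inhibitor of the growth factors GDF8 and GDF11, had 21.3, 14.6 and 15.4 CPM, with replicate 1 the high one. Rarres2 (chemerin) was the only detected choroid plexus gene that was highest in replicate 3, with 17.2, 15.6 and 19.2 CPM. Its count is uncertain, because 33.6% of its exonic length lies under exons of Lrrc61 on the other strand and the strand setting of the counting is not given in the sources used here.

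All 4 receptor genes were highest in replicate 1 and lowest in replicate 3. Kl encodes klotho, a co-receptor for FGF23, and had 260.3, 196 and 127 CPM. Prlr, the prolactin receptor gene, had 132, 62.3 and 52.5 CPM. Htr2c, the serotonin receptor gene of choroid plexus and of some neurons, had 58.7, 41.0 and 22.2 CPM. Folr1, the folate receptor that moves folate into the cerebrospinal fluid, had 61.1, 54.9 and 38.8 CPM. Prlr had by far its highest value in 1 library, while Kl and Htr2c were spread over all 3.

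Channels and other membrane proteins split the libraries differently. Aqp1, the water channel of the apical membrane, had 60.9, 60.5 and 34.5 CPM. Trpm3, a cation channel, had 135, 126 and 68.9 CPM, and Tmem72, a membrane protein gene, had 52.5, 49.5 and 28.7 CPM. In these genes replicates 1 and 2 lay close together and replicate 3 below both. Steap1, of a family of metal reductases, had 11.1, 12.2 and 7.19 CPM. Clic6, of the chloride intracellular channel family, had 143, 100.02 and 80.5 CPM, with replicate 1 apart. Perp, a gene of desmosomes in many epithelia, had 71.7, 65.2 and 67.8 CPM; its coefficient of variation of 4.80% was the lowest of the detected members. The per-length levels of Tmem72 (2.54 CPM per kb) and Trpm3 (4.49 CPM per kb) rest on exonic lengths of 17177 and 24437 bp, the union of all annotated isoforms.

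The homeobox genes of the choroid plexus differed from each other. Otx2, needed for choroid plexus development and upkeep, had 21.3, 14.4 and 11.8 CPM. Lmx1a, which marks the roof plate from which the plexus forms, had 3.10, 2.10 and 1.94 CPM. Both were highest in replicate 1, by 1.48-fold over replicate 2 in each case. Msx1 had 41.9, 53.7 and 44.6 CPM and was the only detected member that was lowest in replicate 1.

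The remaining choroid plexus genes encode intracellular proteins. Cab39l, a scaffold of the kinase LKB1, had 96.3, 81.5 and 65.5 CPM. Rdh5, a retinol dehydrogenase, had 19.1, 20.6 and 11.9 CPM, and Calml4, of the calmodulin family, had 16.0, 14.3 and 9.78 CPM. All 3 were lowest in replicate 3. Exons of Bloc1s1 on the same strand overlap 25.6% of the exonic length of Rdh5, so its count is uncertain too; the same holds for Mia, at 41.3%.

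The cilia genes were low, and 6 of the 11 detected had their lowest value in replicate 3, against 30.6% of all detected genes. Tppp3, a tubulin-binding protein that other brain cells also make, was the highest at 21.3, 24.1 and 19.5 CPM, or 11.7 ± 1.23 CPM per kb. Rsph1, of the radial spoke head, had 7.90, 7.18 and 6.37 CPM, and its spoke partner Rsph4a 5.04, 3.64 and 2.98 CPM. Cfap126, which helps to place basal bodies, had 6.36, 5.76 and 5.28 CPM. All of these had replicate 3 lowest.

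Genes used as markers of ependyma had another order. Ccdc153 had 2.94, 2.05 and 3.52 CPM and Tmem212 had 1.81, 1.39 and 2.25 CPM, so both were highest in replicate 3 and lowest in replicate 2. Dynlrb2, a light chain of dynein, had 2.80, 2.20 and 2.42 CPM. Its widely expressed paralog Dynlrb1 stood at 117 CPM per kb against 4.45 CPM per kb for Dynlrb2; whether reads of the pair were split in counting was not tested.

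Hydin, Spef2, Drc1 and Cfap43 had the lowest levels per length. Hydin, a giant protein of the central pair, had 1.54, 1.49 and 1.30 CPM, which is 0.0800 CPM per kb. Spef2, also of the central apparatus, had 2.15, 1.32 and 1.34 CPM. Cfap43, a cilia and flagella protein, had 4.56, 2.86 and 2.29 CPM, and Ak7, an adenylate kinase of motile cilia, had 4.00327, 2.01 and 2.80 CPM. Drc1, of the complex that regulates dynein along the axoneme, was just under the detection limit. Replicate 1 was the highest of the 3 for Spef2, Cfap43, Ak7 and Hydin.

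By CPM per kb, 8 of 12 cilia genes had the same rank in all 3 libraries and all 12 moved by at most 1 place. Of the 23 choroid plexus genes, 7 kept the same rank and 11 moved by at most 1 place; Prlr, Sostdc1 and Msx1 moved by 5. Ttr, Enpp2, Perp and Clic6 held ranks 1 to 4 in each library. For 17 of the 22 neighbouring pairs in the choroid plexus order, and 6 of 11 in the cilia order, the ranges over libraries overlapped. Of these overlapping pairs, 3 in the choroid plexus order (Perp over Clic6, Clic6 over Folr1 and Calml4 over Tmem72) and 4 in the cilia order (Rsph1 over Dynlrb2, Ccdc153 over Rsph4a, Rsph4a over Ak7 and Ak7 over Cfap43) still had the same direction within each library. The classes differ in size and in the spacing of their levels, so these rank counts were not compared between them.

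Replicate 3 had less of the choroid plexus class than the other libraries. Of its 22 detected genes, 18 were lowest in replicate 3, against 30.6% of all detected genes, and 16 were highest in replicate 1, against 34.5%. Ttr, Msx1, Sostdc1, Steap1 and Rdh5 were the 5 highest in replicate 2, where 28.7% of all detected genes were highest. At least 1.5-fold higher in replicate 1 than in replicate 3 were 15 of the 22 (background 5.4%), and 10 of the 22 were that much higher in replicate 2 than in replicate 3 (background 3.97%). The median fold was 1.62 for replicate 1 over replicate 3 and 1.44 for replicate 2 over replicate 3, beside 0.984 and 0.989 over all detected genes. Each side of these folds is 1 library, so they carry no p-value. In bulk RNA, fewer cells of a type and less RNA per cell cannot be told apart.

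Of the 11 detected cilia genes, 8 were highest in replicate 1, against 34.5% of all detected genes. Lowest in replicate 3 were 6 (background 30.6%), and lowest in replicate 2 were 5 (background 4064 of 13211). At 1.5-fold or more, 3 of the 11 (Rsph4a, Cfap43 and Spef2) were higher in replicate 1 than in replicate 3 (background 5.4%). By the same fold 0 were higher in replicate 2 than in replicate 3 (background 3.97%). Replicate 1 exceeded replicate 2 by that fold for 3 cilia genes (Ak7, Cfap43 and Spef2) and 1 choroid plexus gene, Prlr, against 3.4% of all detected genes. Ccdc153 and Tmem212 were the 2 members at least 1.5-fold higher in replicate 3 than in replicate 2 (background 2.17%). No detected member was that much higher in replicate 2 than in replicate 1 (background 1.73%) or in replicate 3 than in replicate 1 (background 1.54%). Whether the 2 classes differ in their shift between libraries was not tested.

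**Figure D2:**
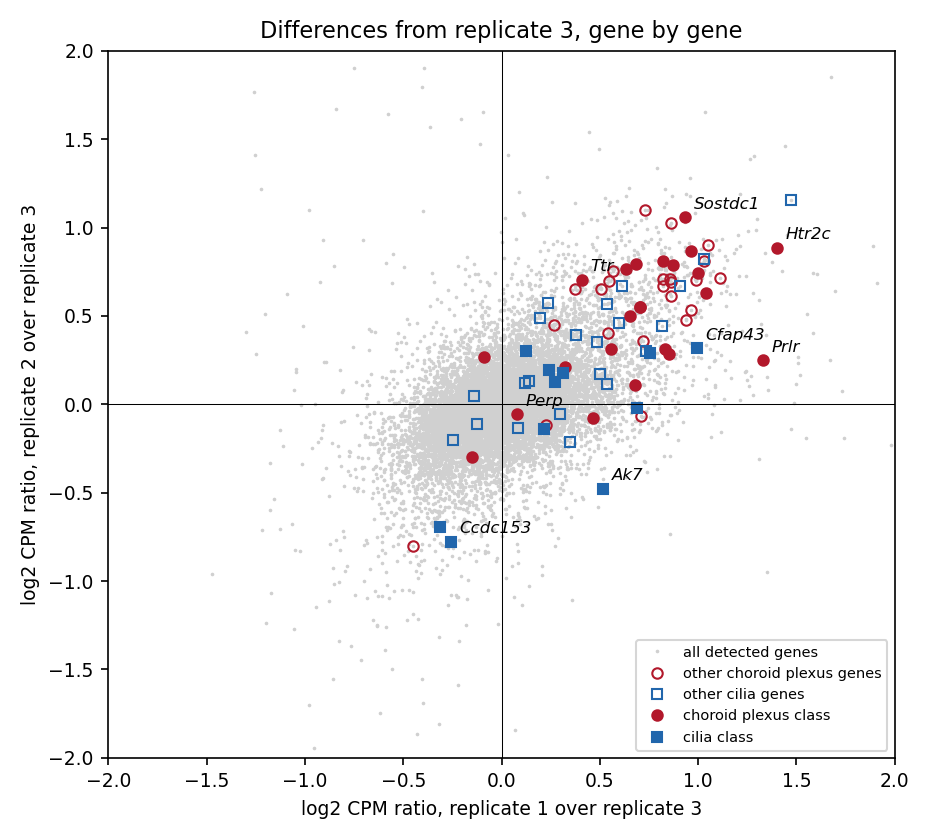
log2 CPM ratio of replicate 1 over replicate 3 (horizontal) against replicate 2 over replicate 3 (vertical) for detected genes; filled symbols are the members, open symbols other genes of the same structures, grey points all 13211 detected genes (17 lie outside the axes), and both axes share replicate 3. The choroid plexus genes lie mostly in the upper right, with median folds of 1.62 and 1.44, while the cilia genes scatter from Ccdc153 and Tmem212 at the lower left to Cfap43 at the right.

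Choroid plexus genes differed in how replicates 1 and 2 compared. Prlr was 2.12-fold higher in replicate 1 than in replicate 2, Otx2 and Lmx1a 1.48-fold, Wfikkn2 1.46-fold, Clic6 and Htr2c 1.43-fold and Kl 1.33-fold. By contrast the fold was 1.01 for Aqp1, 1.07 for Trpm3 and 1.06 for Tmem72, and Ttr stood at 0.816, Steap1 at 0.911, Sostdc1 at 0.918 and Rdh5 at 0.927. Ttr was highest in replicate 2, where Kl, Clic6 and Htr2c were intermediate. In edgeR on replicates 1 and 2 alone, 0 of the 34 members had an adjusted p under 0.05 and 6 had an unadjusted p under 0.05 (Ak7, Clic6, Htr2c, Otx2, Prlr and Wfikkn2). Of all 18482 genes tested there, 33 had an adjusted p under 0.05 and 975 an unadjusted p under 0.05.

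Other choroid plexus genes, from a separate list of 24 that shares no gene with the members, were also mostly lowest in replicate 3. That list too was chosen with earlier results of these data known, so it is not an independent check. All 24 were detected, and 21 had their lowest value there, against 30.6% of all detected genes. Of these 24, 16 were at least 1.5-fold higher in replicate 1 than in replicate 3 (background 5.4%). In replicate 2 over replicate 3 it was 15 (background 3.97%), and the median folds were 1.71 and 1.58. Ecrg4, a secreted peptide precursor, led the list at 61.8 CPM per kb, with 56.0, 68.0 and 43.3 CPM. Kcne2, a potassium channel subunit, had 37.9, 34.5 and 26.1 CPM, and Trpv4, a cation channel, had 68.2, 53.6 and 93.4 CPM. Trpv4 was thus highest in replicate 3; it is also made by other brain cells. Among transporters, the bicarbonate carriers Slc4a5 and Slc4a10 had 51.7, 46.7 and 28.6 CPM and 69.2, 52.6 and 32.0 CPM, and the carbonic anhydrase Car12 had 71.0, 61.0 and 34.8 CPM. These last 3 genes, outside the naming rule, were picked after their values were seen.

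Other cilia genes, 30 in a separate list also chosen with earlier results of these data known, were low like the members. Of the 30, 22 were detected, and 16 of these 22 were lowest in replicate 3, against 30.6% of all detected genes. Of the 22, 7 were at least 1.5-fold higher in replicate 1 than in replicate 3 (background 5.4%). In replicate 2 over replicate 3 it was 4 (background 3.97%). The highest per length were Rsph9 of the radial spoke (10.2, 12.9 and 8.67 CPM), Gas8 of the dynein regulatory complex (13.3, 13.4 and 14.5 CPM) and Nme5 (4.05, 4.14 and 2.80 CPM). Of 10 regulators of ciliogenesis, 5 were detected. Foxj1, the master factor of motile cilia, had 11.2, 11.7 and 9.78 CPM, Rfx2 had 7.18, 10.8 and 7.68 CPM and Rfx3 had 14.5, 10.5 and 9.51 CPM. Cdc20b, named after its values were seen, had no count in any library, which allows up to 0.0234, 0.0220 and 0.0199 CPM (3 counts of each library total, counting error only).

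**Figure D3:**
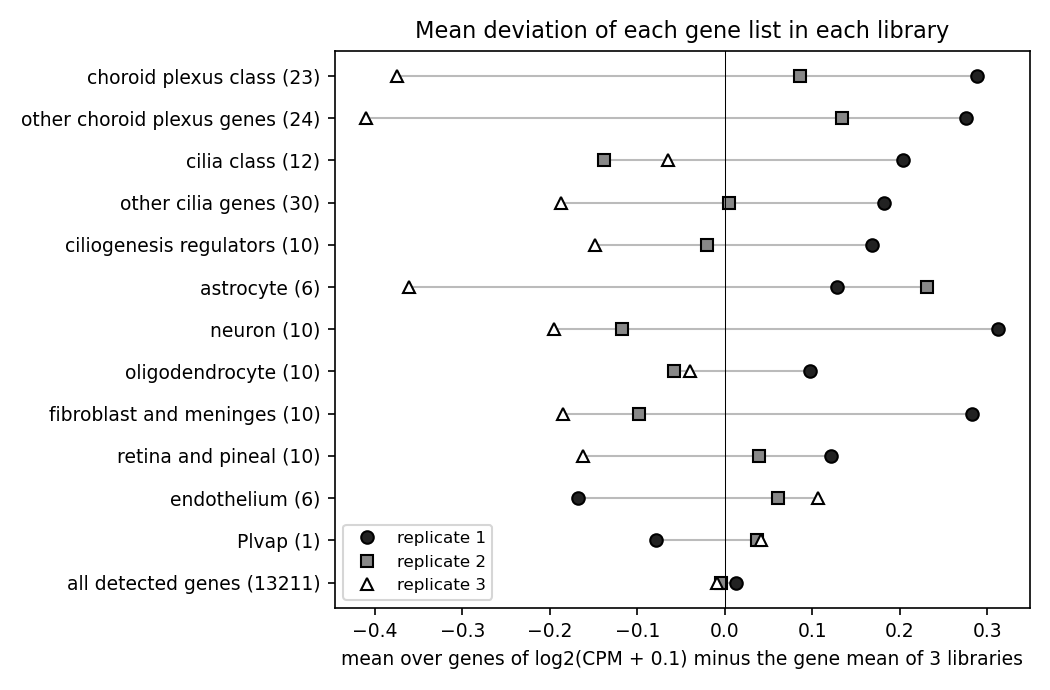
Mean over all measured genes of each list (number of genes in brackets) of log2(CPM + 0.1) minus the gene's own mean of the 3 libraries, 1 marker per library. Replicate 3 has the lowest mean for both choroid plexus lists, at -0.37 and -0.41. It also has the lowest mean for the other cilia genes, ciliogenesis regulators, and the astrocyte, neuron, fibroblast and retina lists. In the neuron and fibroblast lists, however, 5 of 8 detected genes each were lowest in replicate 2 and 3 in replicate 3. Of the 10 retina and pineal genes only 2 were detected. The endothelial list has replicate 1 lowest and all detected genes lie near 0.

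As mean log2 deviations over all measured genes, the choroid plexus class stood at 0.29, 0.09 and -0.37 in replicates 1, 2 and 3 and the cilia class at 0.20, -0.14 and -0.07. The separate lists stood at 0.28, 0.13 and -0.41 for choroid plexus and 0.18, 0.01 and -0.19 for cilia. Other cell types moved between the libraries as well. The astrocyte list, with 6 of 6 markers detected and summed levels of 1569.99, 1708 and 920.2 CPM, deviated by 0.13, 0.23 and -0.36. The fibroblast and meninges list (8 of 10 detected, summed 306.5, 246.6 and 246.4 CPM) deviated by 0.28, -0.10 and -0.18, and the neuronal list (8 of 10 detected, summed 120.5, 96.8 and 113 CPM) by 0.31, -0.12 and -0.20. The endothelial list had the other order, -0.17, 0.06 and 0.11. Erythroid genes summed to 1088, 134 and 62.5 CPM. The share of counts from mitochondrial genes was 3.29% in replicate 1, 1.75% in replicate 2 and 1.65% in replicate 3, so replicate 1, highest for many members, was also highest for these. The part of any of these in the differences between the libraries was not tested.

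The variability test asks whether a gene differs between the 3 libraries by more than genes of like abundance do. In edgeR, 0 of the 34 members tested passed at an adjusted p under 0.05, against 0.0829% of the 18087 genes tested. At an unadjusted p under 0.05, 12 of the 34 passed, against 5.18% of all genes tested. All 12 were choroid plexus genes (12 of 22 tested, and 0 of 12 cilia genes). The cilia genes were mostly lower in level, so these counts do not compare the spread of the classes. Cfap43, at a coefficient of variation of 36.5%, had an unadjusted edgeR p of 0.0717, and Folr1, at 22.3%, one of 0.0345. Prlr (unadjusted p = 0.000936, edgeR adjusted p = 0.323) and Htr2c (0.00139 and 0.372) had the smallest values, followed by Sostdc1 (0.00423 and 0.571), Trpm3, Tmem72, Kl, Aqp1, Clic6, Otx2, Rdh5, Folr1 and Enpp2. Ttr, with 1.63-fold between its highest and lowest library, had an unadjusted p of 0.197 and an edgeR adjusted p of 0.993. Of the separate choroid plexus list, 17 of 24 were at an unadjusted p under 0.05, and 1 of 30 of the cilia list, with 0 at an adjusted p under 0.05 in either.

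A p above the threshold does not show that a member was stable. The number of members called depended on which libraries entered the test. Without replicate 2, edgeR called 3 of the 34 at an adjusted p under 0.05 (Htr2c 0.000146, Prlr 0.000762 and Sostdc1 0.0425), and without replicate 3 the count at an unadjusted p under 0.05 was 6. With no filter on low counts edgeR called the same 3 genes, with a robust prior it called 0, and DESeq2 marked Htr2c and Prlr as dispersion outliers. Over all genes, edgeR called 80 of 18362 without replicate 2, 173 of 30513 with no filter and 0 of 18087 with a robust prior. DESeq2 marked 137 of 56941 genes, and the main edgeR test called 15 of 18087.

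**Figure D4:**
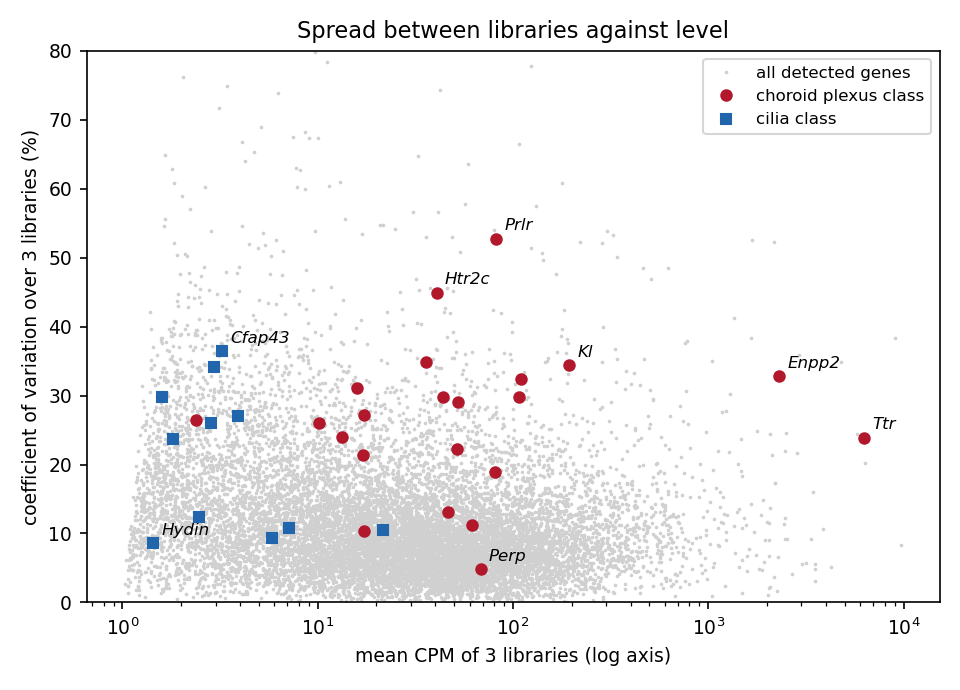
Coefficient of variation over the 3 libraries (%) against mean CPM (log axis) of the detected choroid plexus genes (red circles), cilia genes (blue squares) and all 13211 detected genes (grey; 20 lie above the axis). The choroid plexus genes have a median of 26.8% and the cilia genes 23.7%, beside 9.59% for all detected genes.

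The coefficient of variation over libraries ran from 4.80% (Perp) to 52.8% (Prlr) in the choroid plexus class, with a median of 26.8%. In the cilia class it ran from 8.59% (Hydin) to 36.5% (Cfap43), with a median of 23.7%. The median over all detected genes, which were not matched to the members for level, was 9.59%. None of the 12 cilia genes was below an unadjusted p of 0.05 in the main edgeR test on all 3 libraries. Under other edgeR settings Ak7 (0.0265 without replicate 3) and Cfap43 (0.0196 without replicate 2) were below it. With no filter on low counts both were (0.0417 and 0.0311). Some choroid plexus genes were marked as known from other brain cells, and 12 were not so marked. The members were chosen with earlier results of these data known, so these 12 are not an independent check. The marking was not tested, and expression of these 12 in other brain cells is not excluded. All 12 were detected, and 11 of them were lowest in replicate 3, against 30.6% of all detected genes. At least 1.5-fold higher in replicate 1 than in replicate 3 were 10 of the 12 (background 5.4%).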

How the data were processed

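Polyadenylated RNA of 3 libraries was made from 400 ng of total RNA with a stranded kit and read as pairs of 150 bp, per the labels' protocols. The authors deposited unnormalized counts for each gene. Tools named in the submitters' processing notes are featureCounts and Subread 1.4.6-p5, with build GRCm39. For the aligner, annotation, strand setting and multiply mapping reads, nothing is stated (not given in the sources used here). Effective library sizes came from TMM in edgeR 4.0.16 (R 4.3.3). Exonic lengths (GENCODE M21, GRCm38, matched by symbol, 49089 genes holding 98.3% of counts, all 35 members) served only to scale levels and to find overlapped exons. Variability was tested in edgeR by an intercept-only quasi-likelihood fit over the 18087 genes kept by filterByExpr, with an upper-tail F test of each quasi-dispersion against the trended prior and Benjamini-Hochberg adjustment over all genes. A pseudocount of 0.1 CPM was used in log2 deviations, and folds are plain CPM ratios. Alternatives were DESeq2 1.42.0 size factors and dispersion outliers, library totals, other thresholds and pseudocounts, and each library left out.

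The members and gene lists were chosen with earlier results of these data known. All members are named. From other lists the 3 highest per length and any gene called by the variability test were eligible, with exceptions stated. Promoter windows came from RefSeq, and the proteins planned were not used here. Python 3.11.15 (pandas 2.3.3, numpy 2.4.6) was used for the remaining steps.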

Additional observations from a re-analysis of the deposited data

How the results depend on the processing

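No paired analysis was possible because all 3 libraries form 1 group. Of 127 recomputed values, 115 stayed within the spread between libraries, or within 1.5 times for counts. Some of these could not change, so the count overstates stability. The class level ratio is taken within a library and does not depend on library scaling. Leaving out choroid plexus genes alone cannot change the cilia values. The class level ratio moved from 6.87 to 18.5 with CPM not scaled by length, to 9.20 with means of log2 values, and to 10.8 without Rarres2, Rdh5 and Mia, an alternative chosen after seeing the data; the choroid plexus class was the higher one under each alternative run. Leaving out members marked as known from other brain cells left 12 choroid plexus genes, of which 12 were detected. Of these, 5 passed 1.5-fold for replicate 2 over replicate 3, fewer because fewer genes were counted. At 2-fold, 4 choroid plexus and 0 cilia genes were higher in replicate 1 than in replicate 3, and 1 choroid plexus gene in replicate 2 than in replicate 3. Variability calls among members were 0 in edgeR, 3 with no filter on low counts, 2 as DESeq2 dispersion outliers, and 0 to 3 with 1 library left out. Over all genes tested the calls were 15, 173, 137 and 7 to 80 in the same order. The cause of these differences was not tested. Members at an unadjusted p under 0.05 ranged from 6 to 16 with 1 library left out, and all genes from 975 to 1188. Deviations are centred on the libraries kept: the cilia value in replicate 3 changed from -0.07 to 0.03 without replicate 1, and the choroid plexus value in replicate 2 from 0.09 to -0.10 without replicate 3. Mia had 7 to 11 counts per library, so its values are imprecise, and why it was low was not tested.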

Other observations

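Retina and pineal genes were looked at because both tissues share Otx2, Rdh5 and Ttr with the choroid plexus. Of 10 such genes 2 were detected, Rlbp1 at 4.14, 4.23 and 2.81 CPM and Best1 at 2.21, 3.07 and 1.82 CPM. Some of the others, named after their values were seen, were near 0: Rpe65, of retinal pigment epithelium, had 0.177, 0.272 and 0.0896 CPM, and Crx and Tyr had no count in replicates 2 and 3.

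Plvap, a gene of fenestrated endothelium such as that of the choroid plexus, had 98.8, 107 and 107 CPM in replicates 1, 2 and 3. Its lowest value was in replicate 1, and its coefficient of variation was 4.62%.

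Pituitary genes, 1 of 6 detected (Pomc), summed to 20.7, 1435 and 18.2 CPM in replicates 1, 2 and 3. Most of the sum in replicate 2 was Gh, at 0.108, 1233 and 0.262 CPM. Pomc had 17.7, 105 and 15.0 CPM. In the edgeR variability test 4 of the 6 (Gh, Prl, Cga and Pomc) had an adjusted p under 0.05, against 0.0829% of all genes tested.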
